A study of Mus musculus with 9 samples.

Results

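The nuclear end of the canonical Wnt pathway was followed through 9 genes, picked by symbol. The 4 TCF/LEF genes Lef1, Tcf7, Tcf7l1 and Tcf7l2 encode the DNA-binding partners of beta-catenin. Axin2, Nkd1, Rnf43, Znrf3 and Sp5 are 5 genes that Wnt signalling induces and that feed back on it. All 9 were among the 34590 genes of the count files, and all 9 were among the 17182 genes tested. In the GENCODE annotation of build GRCm38, the TCF/LEF genes lie as Lef1 at chr3:131110471-131224356 (plus strand), Tcf7 at chr11:52252371-52283014 (minus strand), Tcf7l1 at chr6:72626378-72789254 (minus strand) and Tcf7l2 at chr19:55741820-55933654 (plus strand). The feedback targets lie as Axin2 at chr11:108920349-108950783 (plus strand), Nkd1 at chr8:88521354-88594884 (plus strand), Rnf43 at chr11:87662722-87735539 (plus strand), Znrf3 at chr11:5276324-5444847 (minus strand) and Sp5 at chr2:70474923-70477729 (plus strand).

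Libraries came from telencephalons of mouse embryos at stage E12.5, on a strain background labelled as mixed lineage. The telencephalon gives rise to the cerebral cortex and the basal ganglia. There were 4 libraries of Lats1/2 double knockout (dKO) embryos, in which the series' design names Nestin-Cre as the driver, and 5 libraries of embryos labelled wild type (WT). Which alleles or Cre the WT embryos carried, and litters, are not given in the labels. Lats1 and Lats2 are Hippo pathway kinases that restrain the coactivators YAP and TAZ, and Nestin-Cre acts mainly in neural progenitors and their progeny, so vessels, meninges and blood in the dissected tissue lie largely outside its reach. All libraries received ERCC spike-ins, synthetic RNAs, in a fixed amount per counted cell before RNA extraction. In a bulk sample, fewer cells of a type and less RNA per cell cannot be told apart.

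Without a Wnt signal, a complex of Axin, Apc, Gsk3 and casein kinase marks beta-catenin for destruction. A Wnt ligand bound to a Frizzled and Lrp receptor stalls that complex, and beta-catenin enters the nucleus, where it joins a TCF/LEF factor on target genes. In the early telencephalon the strongest source of Wnt ligands is the cortical hem at the dorsal midline. There the pathway is known for its part in hippocampal and dorsal identity and in progenitor growth.

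TCF/LEF factors read a short DNA word whose core is CTTTGA or CTTTGT. Promoters were searched for these words on both strands, over the 250 bases upstream of each RefSeq start (build GRCm38.p6). RefSeq promoters were at hand for 8 of the 9 genes, with 14 starts in all. At least 1 word stood in the window of 4 of these 14 starts, each of another gene, against 27.6% of all 32851 promoters. Both windows with at least 3 words, which 0.776% of all promoters reached, are shown here because they carry the words most densely. Capitals mark the words, and no word overlapped another. A match is a description of these letters and not a site shown to be bound. The first window lies at chr2:70474673-70474922 on the plus strand, upstream of Sp5, with 4 words. The second lies at chr3:131156044-131156293 on the plus strand, upstream of an internal Lef1 start, with 3 words. Neither window overlapped an exon of the GENCODE annotation.
Sp5: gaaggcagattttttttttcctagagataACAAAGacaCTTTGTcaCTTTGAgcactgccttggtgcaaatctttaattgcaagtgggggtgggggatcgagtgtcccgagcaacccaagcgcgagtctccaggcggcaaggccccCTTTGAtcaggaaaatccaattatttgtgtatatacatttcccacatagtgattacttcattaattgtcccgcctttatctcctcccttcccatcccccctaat
Lef1, internal start: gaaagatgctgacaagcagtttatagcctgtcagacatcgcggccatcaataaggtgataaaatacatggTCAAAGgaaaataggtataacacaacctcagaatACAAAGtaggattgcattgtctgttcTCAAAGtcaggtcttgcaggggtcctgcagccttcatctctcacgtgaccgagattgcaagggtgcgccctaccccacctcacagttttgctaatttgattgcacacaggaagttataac

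The libraries held 12906561 to 45803152 gene counts and 198776 to 706808 spike-in counts. Lats1 had 58.8 to 61.3 CPM (read counts scaled to library size with TMM factors) in dKO and 124.7 to 136.4 CPM in WT. Lats2 had 36.3 to 56.4 CPM in dKO and 20.2 to 32.4 CPM in WT; which exons were deleted is not given in the labels, so its reads check nothing. WT 2, 3 and 4 stood apart by their share of reads in no gene, at 39.3% to 41.3% of all reads, against 32.0% to 35.6% in the 4 dKO libraries and in WT 1 and WT 5. Results that change without them are marked. Gene counts per spike-in count, a measure of RNA per counted cell, were 79.1 ± 5.90 in dKO (SD, n = 4) and 58.1 ± 6.10 in WT (n = 5), a 1.36-fold difference (two-sided exact permutation test of the library labels, p = 0.00794, where 126 assignments allow none smaller). Each gene was therefore measured on 2 scales. The relative level, in CPM, sets a gene against the typical gene of its library. The per-cell level is its count per 1000 spike-in counts. Over all tested genes the median log2 fold change (dKO over WT) was -0.01 on the relative scale and 0.43 on the per-cell scale. Summed CPM of 13 telencephalic markers were 2084 to 2288 in dKO and 1975 to 2077 in WT, and all 13 were detected. The replicates were labelled as separate embryos.

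Relative to the library, Lef1, Nkd1 and Rnf43 fell in dKO by about the same amount and Tcf7l1 rose, while Tcf7, Tcf7l2, Axin2, Znrf3 and Sp5 did not pass the test. Thus 3 of 9 genes fell, where 12.0% of all tested genes did, and 1 of 9 rose, where 13.7% of all did (edgeR quasi-likelihood test, adjusted p under 0.05 over all tested genes). The median relative log2 fold change of the 9 was -0.22. Per cell, the 3 that fell on the relative scale did not pass, and Tcf7l1, Tcf7l2, Axin2 and Znrf3 rose, 4 of 9 against 61.1% of all tested genes. Of the 9 genes, 0 fell per cell, against 0.698% of all (also 0 at an unadjusted p under 0.05, and 0 with DESeq2 and limma-voom). The median per-cell value of the 9 was 0.22.

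**Figure D1:**
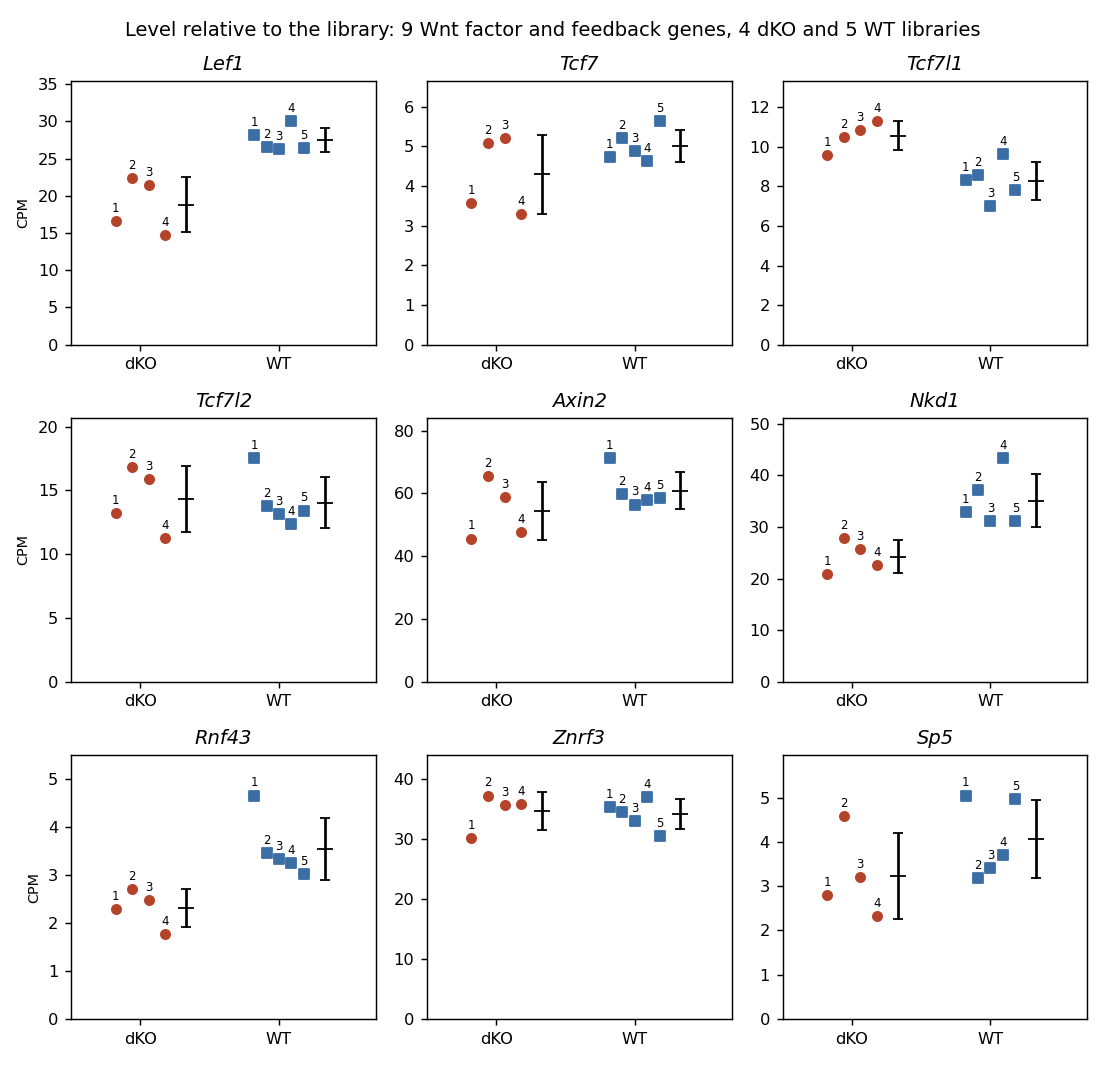
Relative level (CPM, vertical axes from 0) of the 9 genes in each library, numbered by replicate, with dKO as red circles and WT as blue squares; black bars are the mean ± SD (n = 4 dKO, n = 5 WT). The groups are apart for Lef1, Nkd1 and Rnf43, and for Tcf7l1 only dKO 1 (9.58 CPM) lies below the highest WT library (9.63 CPM).

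Lef1, which encodes the TCF/LEF factor best known as a transcriptional activator and is itself a Wnt target, had 16.6, 22.4, 21.5 and 14.8 CPM in dKO 1 to 4. In WT 1 to 5 it had 28.1, 26.5, 26.3, 30.0 and 26.4 CPM. All 4 dKO libraries were below all 5 WT libraries. The mean was 18.8 ± 3.71 CPM in dKO (SD, n = 4) and 27.5 ± 1.60 CPM in WT (n = 5), or 0.688-fold. The log2 difference on the relative scale was -0.54 with an SE of 0.11 (edgeR, adjusted p = 0.00500). Such separation of the groups, with dKO lower, was seen at 9.74% of all tested genes and at 3 of the 9 genes here. Per cell the Lef1 levels were 1.16, 1.89, 1.69 and 1.22 in dKO and 1.52, 1.32, 1.68, 1.83 and 1.65 in WT. These overlapped, with dKO 1 and 4 below every WT library and dKO 2 above every one. The per-cell log2 fold change of -0.10 had a 95% interval of -0.39 to 0.18, which does not reach the median of all genes, 0.43. Without WT 2, 3 and 4, the relative fall was -0.52 and did not pass (adjusted p = 0.110). An antisense gene, Gm43352, overlaps 13.8% of the annotated Lef1 exon bases, and although the library kit keeps the strand, the strand setting of the counting is not given, so its reads may be among those of Lef1.

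Tcf7l1, the TCF/LEF factor known mainly as a repressor of Wnt targets, had 9.58, 10.5, 10.8 and 11.3 CPM in dKO 1 to 4. In WT 1 to 5 it had 8.33, 8.59, 7.01, 9.63 and 7.84 CPM. The groups met at WT 4, which was level with dKO 1, and otherwise dKO was higher. Its relative log2 fold change was 0.35 (SE 0.10, adjusted p = 0.0249, edgeR). The call was lost without WT 3, without dKO 3 and without dKO 4 (values of 0.29 to 0.34), and without WT 2, 3 and 4 together (0.39, adjusted p = 0.117). Per cell Tcf7l1 was 0.670, 0.886, 0.853 and 0.931 in dKO and 0.451, 0.427, 0.447, 0.588 and 0.489 in WT. Here no dKO library overlapped WT, which held for 48.4% of all tested genes in this direction and for 1 of the 9. The per-cell log2 fold change was 0.79 (SE 0.15, adjusted p = 7.16e-05, edgeR), or 1.73-fold, and it passed in each of the 16 alternatives run. The antisense gene Gm15401 overlaps 4.56% of its annotated exon bases.

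Tcf7l2, a TCF/LEF factor with a well-known strong expression in the thalamus, had 13.2, 16.9, 15.9 and 11.2 CPM in dKO and 17.5, 13.8, 13.2, 12.4 and 13.4 CPM in WT. The groups overlapped, with the lowest value in dKO 4 and the highest in WT 1. The relative log2 fold change was 0.05, with a 95% interval of -0.23 to 0.32. Per cell its log2 fold change was 0.48 (SE 0.14, adjusted p = 0.00479, edgeR), close to the median of all genes, and without WT 2, 3 and 4 it was 0.35 and did not pass. Tcf7, which encodes the factor TCF1 known from T cell development, was low, at 3.30 to 5.22 CPM in dKO and 4.64 to 5.64 CPM in WT. Its relative log2 fold change of -0.22 did not pass (95% interval -0.55 to 0.11), nor did its per-cell value of 0.22. Markers of T cells were near 0: Cd3e, Cd3g, Cd4, Cd8a and Il7r each had fewer than 10 counts in every library.

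**Figure D2:**
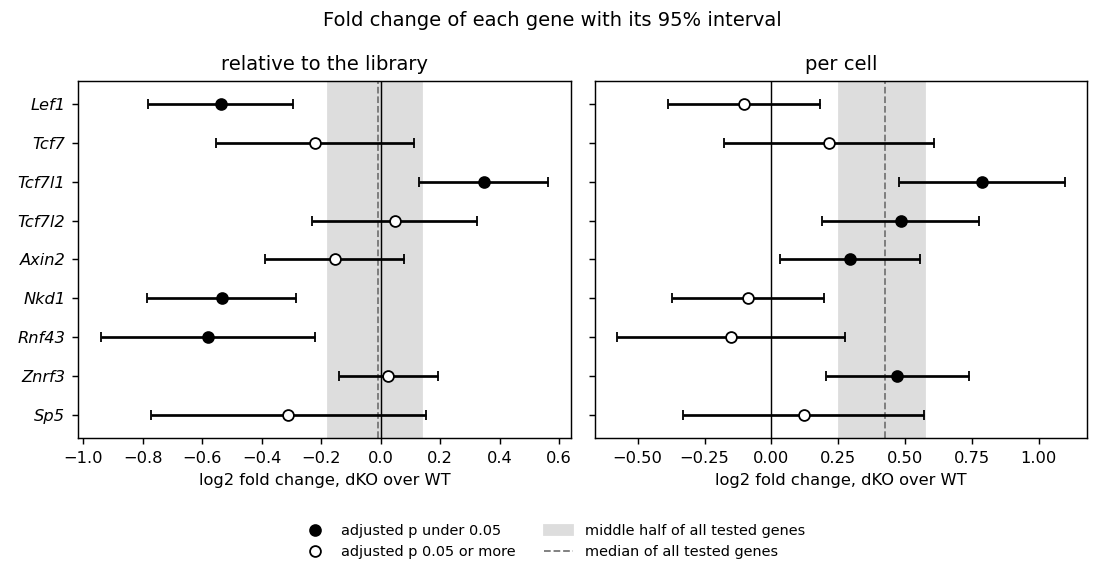
Log2 fold change (dKO over WT) of each gene with its 95% interval from the edgeR fit, relative to the library on the left and per cell on the right; filled points passed the test, the grey band spans the quartiles of all tested genes and the dashed line is their median. Lef1, Tcf7, Nkd1, Rnf43 and Sp5 lie below the band on both scales, with intervals that include 0 per cell, and Tcf7l1 lies above it on both.

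Axin2, a scaffold of the destruction complex and a widely used readout of canonical Wnt signalling, had 45.6, 65.6, 58.7 and 47.8 CPM in dKO 1 to 4. In WT 1 to 5 it had 71.2, 59.9, 56.5, 58.0 and 58.6 CPM. dKO 1 and 4 were below every WT library, while dKO 2 and 3 lay within the WT range. The relative log2 fold change of -0.16 did not pass (SE 0.11, 95% interval -0.39 to 0.08). Per cell Axin2 was 3.19, 5.53, 4.62 and 3.94 in dKO and 3.85, 2.98, 3.60, 3.54 and 3.66 in WT. There 3 of 4 dKO libraries were above every WT library and dKO 1 was within the range. The per-cell log2 fold change of 0.29 (SE 0.13) passed narrowly (adjusted p = 0.0482, edgeR). It did not pass with DESeq2 (adjusted p = 0.0592), with limma-voom (0.0679) or without WT 2, 3 and 4 (0.20, adjusted p = 0.294), and over the libraries left out 1 at a time it ranged from 0.15 (without dKO 2) to 0.42 (without dKO 1). The antisense gene Gm11670 overlaps 3.8% of its annotated exon bases.

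Nkd1, a cytoplasmic inhibitor that binds Dishevelled, had 20.8, 27.9, 25.8 and 22.6 CPM in dKO and 32.9, 37.2, 31.1, 43.3 and 31.2 CPM in WT. Every dKO library was below every WT library. Its relative level was 0.690-fold that of WT, a log2 difference of -0.54 with an SE of 0.11 (edgeR, adjusted p = 0.00613). It was -0.40 without WT 2, 3 and 4 and did not pass (adjusted p = 0.105). Per cell it was 1.46, 2.35, 2.03 and 1.86 in dKO and 1.78, 1.85, 1.98, 2.64 and 1.95 in WT, with groups that overlapped and a log2 fold change of -0.09 (95% interval -0.37 to 0.20).

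Rnf43 and Znrf3 encode related membrane ubiquitin ligases that remove Frizzled receptors from the cell surface and are held back by R-spondins. Rnf43 had 2.28, 2.71, 2.48 and 1.77 CPM in dKO and 4.66, 3.47, 3.34, 3.26 and 3.02 CPM in WT, and all dKO libraries were below all WT libraries. Its relative log2 fold change was -0.58 (SE 0.16, adjusted p = 0.0234, edgeR), or 0.668-fold. This gene had the lowest counts of the 9, with 29 in dKO 4, and the call was lost without dKO 1 (-0.57), without dKO 4 (-0.49) and without WT 2, 3 and 4 (-0.68, adjusted p = 0.168). Per cell its log2 fold change was -0.15 (95% interval -0.58 to 0.28). Znrf3 had 30.1, 37.2, 35.7 and 35.8 CPM in dKO and 35.4, 34.5, 33.1, 37.0 and 30.4 CPM in WT. These groups shared the same range, and the relative log2 fold change was 0.03 (95% interval -0.14 to 0.19). Per cell Znrf3 had 2.11, 3.14, 2.80 and 2.95 in dKO and 1.92, 1.72, 2.11, 2.26 and 1.90 in WT, which is 1.39-fold, or 0.47 on the log2 scale (SE 0.13, edgeR, adjusted p = 0.00267), close to the median of all genes.

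Sp5, a zinc finger factor induced by Wnt, had 2.79, 4.59, 3.20 and 2.32 CPM in dKO. In WT it had 5.05, 3.19, 3.41, 3.71 and 4.97 CPM. The spread within each group was wide, with dKO 1 and 4 below every WT library. The relative log2 fold change of -0.31 did not pass (95% interval -0.77 to 0.15), nor did the per-cell value of 0.12. The relative value was -0.52 without dKO 2 and -0.62 without WT 2, 3 and 4, and did not pass in either fit. Of the related factors Sp1, Sp3, Sp4, Sp8 and Sp9, Sp1 rose (0.16, SE 0.04, adjusted p = 0.0189, edgeR), and Sp9 (-1.05, SE 0.12) and Sp4 (-0.13) fell on the relative scale. The Sp4 call was lost in 8 of the 9 fits that left out 1 library, and those of Sp1 and Sp4 without WT 2, 3 and 4. Per cell, 1 of these 5 factors fell, Sp9 (-0.63, SE 0.14, adjusted p = 0.000288, edgeR), where 0.698% of all tested genes did. Sp1, Sp3, Sp4 and Sp8 rose per cell, 4 of 5, where 61.1% of all did. Without WT 2, 3 and 4, 3 rose and 1 fell per cell, where 49.1% and 0.250% of all did.

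**Figure D3:**
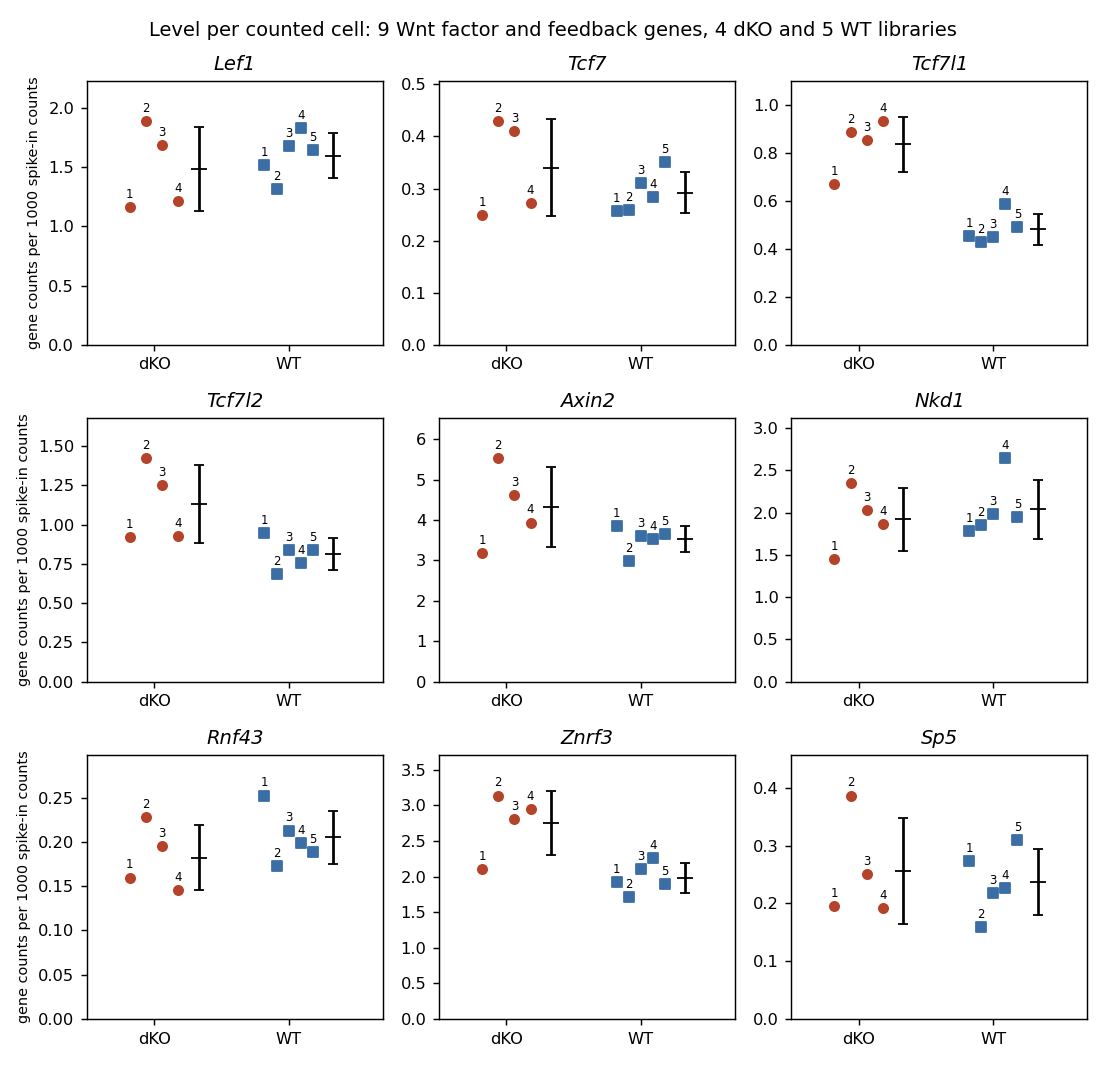
Per-cell level (gene counts per 1000 spike-in counts, vertical axes from 0) of the same 9 genes in each library, numbered by replicate, with dKO as red circles and WT as blue squares; black bars are the mean ± SD (n = 4 dKO, n = 5 WT). Tcf7l1 is the 1 gene of the 9 whose groups are apart, and the Lef1, Nkd1 and Rnf43 groups overlap.

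The dKO libraries differed among themselves. For Lef1, Tcf7, Tcf7l2, Axin2, Nkd1, Rnf43 and Sp5, relative levels in dKO 1 and 4 were below those in dKO 2 and 3, an order picked out after these values were seen. It held for 7 of the 9 genes and for 21.3% of all tested genes. The reverse, with dKO 1 and 4 above dKO 2 and 3, held for 0 of the 9 and for 25.5% of all tested genes. Tcf7l1 and Znrf3 did not share the order of the 7 genes. Summed markers of diencephalon and midbrain, of cortical hem and choroid plexus, of endothelium and of red cells had the same order within dKO. The summed CPM of 12 diencephalic and midbrain markers were 62.5, 79.2, 75.9 and 46.1 in dKO 1 to 4 and 54.9 to 81.8 in WT, with Foxb1 and En1 among those under 10 counts in every library. Those of 15 markers of cortical hem and choroid plexus were 371, 490, 511 and 390 in dKO and 308 to 663 in WT. Endothelial markers summed to 361, 363, 407 and 327 CPM in dKO and 323 to 415 CPM in WT. Red cell markers summed to 2368, 3324, 3011 and 1753 CPM in dKO and 2170 to 6148 CPM in WT. By mean, Ttr was the largest part of the hem and choroid plexus sum, at 124 CPM in dKO and 223 CPM in WT. Lhx9 was the largest part of the diencephalic and midbrain sum (49.9 and 51.9 CPM), and Hbb-y of the red cell sum (2152 and 2995 CPM). Pericyte and mesenchymal markers, at 808 to 1131 CPM in dKO and 882 to 1097 CPM in WT, did not share the order. Nor did telencephalic markers, at 2288, 2257, 2205 and 2084 CPM in dKO 1 to 4. Lymphoid and myeloid markers (38.4, 40.9, 41.1 and 48.2 CPM) also lacked it. So did those of surface ectoderm and neural crest (17.9, 19.3, 17.9 and 32.9 CPM). The part of these cell types and regions in the results was not tested.

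Ratios of 2 genes counted in the same library need no scaling between libraries. The 6 pairs of TCF/LEF genes and the pair of Znrf3 and Rnf43 were compared, with exact permutation p-values (two-sided) adjusted over these 7 pairs. Tcf7l1 over Lef1 gave the largest difference of the 7, with count ratios of 0.577, 0.469, 0.505 and 0.764 in dKO and 0.296, 0.324, 0.266, 0.321 and 0.297 in WT. Every dKO ratio exceeded every WT ratio, by 1.89-fold on average (log2 0.92, SE 0.16, exact p = 0.00794, adjusted p = 0.0278). Tcf7l2 over Lef1 was 0.742 to 0.794 in dKO and 0.412 to 0.622 in WT (log2 0.59, SE 0.10, exact p = 0.0159, adjusted p = 0.0278). Tcf7 over Lef1 was 0.215 to 0.243 in dKO and 0.155 to 0.214 in WT (log2 0.31, SE 0.09, exact p = 0.0159, adjusted p = 0.0278). Lef1 was thus lower in dKO against each of the other TCF/LEF genes, without overlap of the groups in any of these 3 ratios. The 3 ratios share the Lef1 counts, so they are not separate results. For Tcf7 over Lef1 the gap was narrow, with a lowest dKO ratio of 0.215 and a highest WT ratio of 0.214.

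Tcf7l1 over Tcf7 was 2.68, 2.06, 2.08 and 3.43 in dKO and 1.76, 1.65, 1.44, 2.08 and 1.39 in WT, a log2 difference of 0.61 (SE 0.20, exact p = 0.0238, adjusted p = 0.0333). These groups overlapped at WT 4. Tcf7l1 over Tcf7l2 (log2 0.34, SE 0.19, adjusted exact p = 0.135) and Tcf7l2 over Tcf7 (0.27, SE 0.12, adjusted exact p = 0.0741) did not pass. Between the ligases, Znrf3 over Rnf43 was 13.2, 13.7, 14.4 and 20.2 in dKO and 7.59, 9.95, 9.89, 11.3 and 10.1 in WT. All dKO ratios were above all WT ratios (log2 0.65, SE 0.17, exact p = 0.00794, adjusted p = 0.0278). Without WT 2, 3 and 4, the 15 possible assignments allow no exact p under 0.0667, and the 4 ratios without overlap had log2 values of 0.26 to 0.94.

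**Figure D4:**
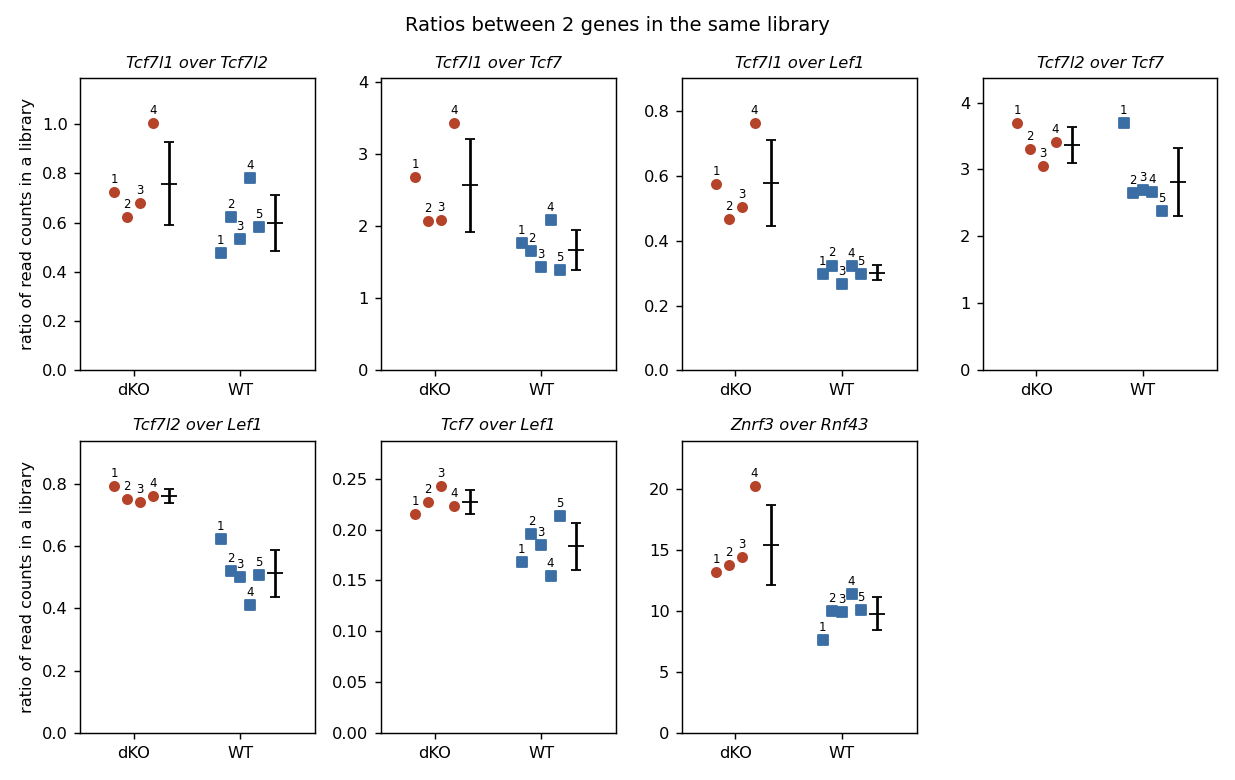
Ratio of read counts of 2 genes in the same library (vertical axes from 0), numbered by replicate, with dKO as red circles and WT as blue squares; black bars are the mean ± SD (n = 4 dKO, n = 5 WT). The groups are apart in the 3 ratios over Lef1 and in Znrf3 over Rnf43.

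Levels of different genes were set side by side as CPM per kilobase of the longest GENCODE transcript, which is an approximation since the files were counted on mm9. In dKO the order was Axin2 (12.8 ± 2.20, SD, n = 4), Nkd1 (5.95 ± 0.780), Znrf3 (5.50 ± 0.499), Lef1 (5.15 ± 1.01), Tcf7l2 (3.85 ± 0.692), Tcf7l1 (3.47 ± 0.238), Tcf7 (1.74 ± 0.406), Sp5 (1.54 ± 0.465) and Rnf43 (0.536 ± 0.0929). In WT it was Axin2 (14.3 ± 1.39, SD, n = 5), Nkd1 (8.61 ± 1.27), Lef1 (7.52 ± 0.438), Znrf3 (5.40 ± 0.398), Tcf7l2 (3.78 ± 0.540), Tcf7l1 (2.72 ± 0.318), Tcf7 (2.03 ± 0.164), Sp5 (1.94 ± 0.420) and Rnf43 (0.824 ± 0.149). Axin2 was above Nkd1 and Sp5 above Rnf43 without overlap of libraries in both groups. Lef1 lay above Znrf3 without overlap of the WT libraries, and the ranges of these 2 genes overlapped in dKO. Nkd1, Znrf3, Lef1 and Tcf7l2 each overlapped the next gene of the order in dKO, as Tcf7 did with Sp5, while in WT only Nkd1 with Lef1, and Tcf7 with Sp5, did. Per kilobase of all annotated exons, Axin2 and Nkd1 were still first and Rnf43 last, and Lef1 and Tcf7l2, with 8788 and 8775 exon bases, moved down the order.

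The genes with a pattern most like that of Lef1 were Mfng, a glycosyltransferase that modifies Notch, Ptprz1, a receptor phosphatase of radial glia, and the lipid kinase gene Pik3c2b. Likeness was the mean absolute difference between centred log2 CPM profiles over the 9 libraries, among the 12573 genes that averaged 1 CPM or more, and it was 0.05, 0.05 and 0.06 in that order. Ptprz1 had 187 to 284 CPM in dKO and 317 to 345 CPM in WT, and Mfng 49.7 to 73.7 CPM in dKO and 86.2 to 97.3 CPM in WT. For Axin2 the nearest were Lrch4, Wdr25 and Nckipsd, at 0.05, 0.06 and 0.06.

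The rest of the canonical pathway was taken from lists of its other parts, whose counts stand beside 12.0% of all tested genes that fell and 13.7% that rose on the relative scale. Of 18 genes of the destruction complex and its transducers, 7 fell and 0 rose relative to the library (edgeR; 0 rose also at an unadjusted p under 0.05 and with DESeq2 and limma-voom), with a median of -0.08. Apc2, a neuronal relative of the scaffold Apc, fell by 0.51 on the log2 scale (SE 0.06, adjusted p = 0.000408, edgeR), to 287.9 ± 27.8 CPM in dKO (SD, n = 4), against 409.5 ± 22.8 CPM in WT (n = 5). Apc itself was at -0.29 (SE 0.05) and the tankyrase gene Tnks, whose product destabilises Axin, at -0.18 (SE 0.03), and both passed. Apc (adjusted p = 0.123) and Tnks (adjusted p = 0.0857) lost their calls without WT 2, 3 and 4 (edgeR), and Apc2 still passed there. Ctnnb1, which encodes beta-catenin and was chosen here after its value was seen, had a relative log2 fold change of 0.06 that did not pass.

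Of 16 nuclear cofactors, 8 fell and 1 rose, where 12.0% and 13.7% of all tested genes did, with a median of -0.18. The falls included Bcl9 (-0.45, SE 0.06), which links beta-catenin to Pygopus, the Groucho corepressor Tle3 (-0.31, SE 0.06) and the short Groucho relative Aes (-0.18, SE 0.03), and all 3 of these calls were lost without WT 2, 3 and 4. The gene that rose was Ctbp2 (0.16), named after its value was seen. Of 18 tested receptors and R-spondin arm genes, 3 rose and 2 fell (median 0.08), which is near the shares of all tested genes, 13.7% and 12.0%. The Frizzled genes Fzd7 (0.48, SE 0.08) and Fzd2 (0.12, SE 0.04) and the R-spondin receptor Lgr4 (0.33, SE 0.11) rose, and Fzd1 (-0.28, SE 0.06) and Fzd9 (-0.46, SE 0.13) fell. Without 1 library, the call of Lgr4 was lost in 6 of 9 fits, that of Fzd2 in 6 and that of Fzd9 in 4. The calls of Fzd7, Fzd2, Lgr4, Fzd1 and Fzd9 were all lost without WT 2, 3 and 4, where Lgr4 was at 0.08 and Fzd9 at -0.18.

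Among 16 tested genes known to respond to Wnt in other settings, 3 fell and 1 rose (median -0.06), beside 12.0% and 13.7% of all tested genes. Apcdd1, a membrane-bound Wnt inhibitor, fell by 0.69 on the log2 scale (SE 0.10, adjusted p = 0.000726, edgeR), with Tnfrsf19 (-0.20, SE 0.05) and Sox4 (-0.25, SE 0.07). Bmp4, a ligand of the dorsal midline, rose by 1.09 (SE 0.21). The call of Sox4 was lost in 3 of the 9 fits that left out 1 library. Without WT 2, 3 and 4 it was lost too, as were those of Tnfrsf19 and Bmp4 (0.76), and Apcdd1 still passed (-0.60, adjusted p = 0.0497). Per cell, 13 of 18 destruction complex genes, 8 of 16 cofactors, 13 of 18 receptor genes and 7 of 16 responsive genes rose, beside 61.1% of all tested genes. In each of these lists 0 fell, beside 0.698% of all (0 also at an unadjusted p under 0.05 and with DESeq2 and limma-voom). The relative falls numbered 0 in the cofactor list and 1 in the destruction complex list without WT 2, 3 and 4, where 0.949% of all tested genes fell.

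**Figure D5:**
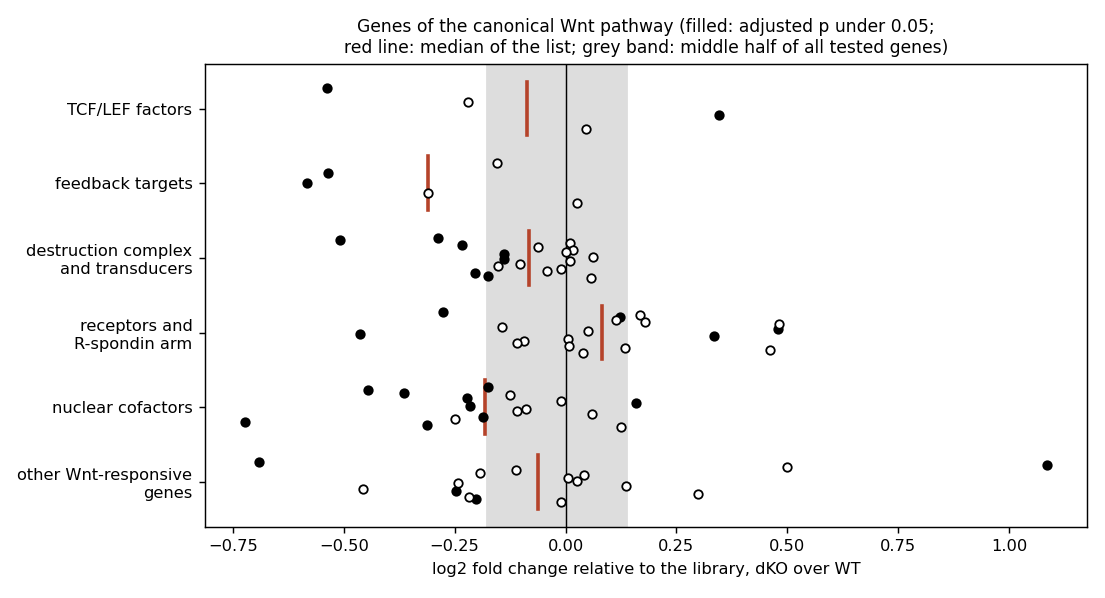
Relative log2 fold change (dKO over WT, horizontal axis) of each tested gene of the TCF/LEF factors, the feedback targets and 4 lists of other canonical Wnt pathway genes; filled points passed the test, red lines are list medians and the grey band spans the quartiles of all tested genes. The medians run from -0.31 (feedback targets) to 0.08 (receptors and R-spondin arm).

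Without WT 2, 3 and 4, none of the 9 genes passed on the relative scale, where 0.949% of all tested genes fell and 2.51% rose. At an unadjusted p under 0.05 in that edgeR fit, Lef1, Nkd1, Rnf43 and Sp5 were lower, 4 of 9 against 8.84% of all, and Tcf7l1 was higher, 1 of 9 against 11.2% of all. Per cell, Tcf7l1 (0.82) and Znrf3 (0.53) still rose, 2 of 9 against 49.1% of all tested genes (2 of 9 against 57.2% at an unadjusted p under 0.05). Of the 9 genes, 0 fell per cell in that fit, against 0.250% of all by adjusted p and 0.367% by unadjusted p.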

How the data were processed

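Total RNA of telencephalons was sequenced as paired reads of 100 bp from libraries of 350 ng RNA, after spike-ins were added per counted cell, per the labels' protocols. The authors deposited raw counts of reads for each gene symbol in a separate file for every library. STAR and HTSeq on the mm9 build are named in the submitters' processing notes; for versions, annotation and strand setting the sources used here say nothing. The counter's rows for reads in no gene (32.0% to 41.3% of all reads), reads aligned to several places (15.7% to 18.3%), reads not aligned (6.14% to 7.49%) and ambiguous reads (at most 0.364%) stayed out of library sizes and tests. Counting precision is limited for low genes: counts of the 9 genes ran from 29 to 2289 per library. The intervals given are 95% intervals of the log2 fold change between groups, computed with the fitted spread between libraries.

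Counts were analysed in R 4.3.3. edgeR 4.0.16 filterByExpr kept 17182 genes, and the quasi-likelihood test was fitted to all 4 dKO and 5 WT libraries with Benjamini-Hochberg adjustment over all genes kept. The per-cell fit used the total of 92 spike-ins as library size, so its p-values share these totals, and the relative fit used TMM. SE is the fold change over the root of the F statistic. CPM values are TMM-scaled. The fits were run on simulated data with known changes. There the ratio of spike-in to gene counts varied within a group only by sampling, so spike-in variation between libraries was not covered. Alternatives were DESeq2 1.42.0, limma 3.58.1 voom, other size factors (RLE, total gene count, TMM over 49 spike-ins with at least 10 counts in every library), no filter, a mean count of at least 50, each library left out, WT 2, 3 and 4 left out, and a replicate block. Ratios and gene counts per spike-in count were compared by exact permutation of library labels. Genes of the pathway lists were named by the smallest relative adjusted p (3 in lists of at least 10, 2 otherwise). All called genes were named where at most 5 were called. Marker lists are given as summed levels instead, with Ttr, Lhx9 and Hbb-y named after their levels were seen. The members, lists and alternatives were chosen with earlier results of these data known, and of 176 list entries an older symbol was used where the files held it.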

Additional observations from a re-analysis of the deposited data

Results flagged for a closer look

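Among 52 groups of 4 or 5 libraries examined, 6 had 1 library far from the rest by Dixon's criterion, which chance meets in about 1 in 20 groups. In WT 1, the library with the fewest gene counts (12906561), Tcf7l2 (17.5 CPM, next highest WT library 13.8), Axin2 (71.2 CPM, next 59.9) and Rnf43 (4.66 CPM, next 3.47) were high relative to the library, and the ratio of Tcf7l2 over Tcf7 was 3.69 (next 2.70). WT 1 also had the highest summed red cell markers, 6148 CPM against 2170 to 3971 CPM in the other WT libraries. Without WT 1 the relative log2 fold changes were 0.13 for Tcf7l2, -0.10 for Axin2 and -0.49 for Rnf43, the last of which still passed (edgeR). Nkd1 per cell was high in WT 4, at 2.64 against a next highest WT value of 1.98 counts per 1000 spike-in counts. Znrf3 over Rnf43 was high in dKO 4, at 20.2 against 14.4, where Rnf43 had 29 counts.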

How the results depend on the processing

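Relative calls of Lef1 and Nkd1 passed in 16 of 17 alternatives each, Rnf43 in 14 and Tcf7l1 in 12; per-cell calls of Tcf7l1 and Znrf3 passed in 16 of 16, Tcf7l2 in 15 and Axin2 in 6. Without WT 2, 3 and 4, genes lower relative to the library numbered 163 and genes higher 432, members lower 0 and members higher 0; per cell 43 genes were lower and 2 members higher. In that setting the log2 ratios were 0.26 for Tcf7 over Lef1, 0.94 for Tcf7l1 over Lef1, 0.68 for Tcf7l1 over Tcf7, 0.44 for Tcf7l2 over Lef1 and 0.79 for Znrf3 over Rnf43, and gene counts per spike-in count 0.45, where 15 assignments allow no exact p under 0.0667. Fewer WT libraries were left there. Values that never passed changed sign: per cell Nkd1 (0.042) and Sp5 (-0.19), relative Tcf7l2 (-0.087). Genes lower per cell numbered 79 with DESeq2 and 187 with no filter, against 120. Over the fits with 1 library left out, genes lower per cell ranged from 67 (without WT 3) to 203 (without WT 1), genes lower relative to the library from 1369 (without WT 4) to 2275, and members higher relative to the library from 0 to 1. Per-cell values ranged from -0.24 to 0.0061 for Lef1, -0.20 to 0.029 for Nkd1 and -0.14 to 0.25 for Sp5, and relative values from -0.032 to 0.14 for Tcf7l2 and -0.014 to 0.090 for Znrf3, -0.52 to -0.20 for Sp5, -0.25 to -0.077 for Axin2 and -0.32 to -0.13 for Tcf7. Log2 ratios ranged from 0.25 to 0.37 (Tcf7 over Lef1), 0.78 to 1.01 (Tcf7l1 over Lef1), 0.46 to 0.70 (Tcf7l1 over Tcf7), 0.51 to 0.66 (Tcf7l2 over Lef1), 0.21 to 0.37 (Tcf7l2 over Tcf7) and 0.51 to 0.71 (Znrf3 over Rnf43). The exact test reached no adjusted p under 0.05 in 7 of these 9 fits for Tcf7 over Lef1 and for Tcf7l1 over Tcf7, and in 3 for Tcf7l1 over Lef1, Tcf7l2 over Lef1 and Znrf3 over Rnf43; it passed in 1 for Tcf7l2 over Tcf7. The causes were not tested.

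The groups share replicate numbers 1 to 4. Correlations of deviations were -0.265 to 0.142 over the 4 same-numbered pairs and -0.273 to 0.268 over the differently numbered pairs. With so few pairs these values cannot tell whether a number stands for a shared litter or batch, and the labels do not say. With the replicate block, members higher relative to the library numbered 0 (Tcf7l1 0.34, adjusted p = 0.0611, edgeR), relative Znrf3 was -0.013, and the per-cell adjusted p of Axin2 was 0.0723; genes lower relative to the library numbered 1598 and genes higher 1864.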
